A study of Mus musculus with 4 samples.

Results

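The 46 genes described here encode nucleolar proteins and factors that build ribosomes, from the subunits of RNA polymerase I to the proteins that fold, cut, modify and export the ribosomal RNA precursor. They were taken as a list of symbols, and all 46 were found among the 22471 genes tested on the arrays. Spots of a probe were averaged, and among a gene's probes the one with the highest mean signal on the 4 arrays was used. The list was drawn up with earlier results of these data known, so its counts and medians are descriptions and carry no test of the list.

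The samples were regulatory T (Treg) cells made in culture from C57BL/6 mice, and their RNA was hybridised to 4 single-colour Agilent arrays, 2 per genotype. The control cells carried floxed Junb alleles without Cre (Junbfl/fl). The other cells carried the same alleles with Cd4-Cre (Junbfl/flCd4-Cre), in which the Cd4 promoter drives Cre recombinase in T cells, and JunB pairs with other Jun or Fos family proteins to form AP-1 transcription factors. Both genotypes were handled alike: naive CD4 T cells were sorted and stimulated for 3 days with anti-CD3 bound to the plate (1 μg/ml) and anti-CD28 (0.5 μg/ml), together with human TGF-β1 (5 ng/ml) and neutralising antibodies to the cytokines IFN-γ (5 μg/ml) and IL-4 (5 μg/ml). The labels give no ages and do not say whether 2 arrays of a genotype stand for different mice or cultures, so the p-values cover only array-to-array spread, part of which may be technical. One label, that of the extraction, names colon, against cultured cells in all others.

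Ribosomes are made in the nucleolus. RNA polymerase I copies the ribosomal DNA into a long precursor, small nucleolar ribonucleoproteins (snoRNPs) guide its chemical modification, and large sets of assembly factors turn it into the small (40S) and large (60S) subunits. Resting T cells make few ribosomes, and stimulation through the antigen receptor is known to raise the output of this pathway as the cells grow and divide, in part through the transcription factor Myc.

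Junb, the targeted gene, was examined as a check of the labels. Its coding-region probe gave processed signals of 47.2 and 31.7 in control cells, against 4.11 and 1.47 under the label Junbfl/flCd4-Cre, where neither array was well above background. Its brighter 3′ probe gave 9791 and 9072 in control cells, against 1053 for array 1 and 10078 for array 2 of the other genotype. That probe did not follow the label for array 2, and which stretch Cre removes was not stated in the labels, so all directions rest on the labels. Of 12 T cell markers 11 were measured, and all 11 were well above background on all 4 arrays, with summed signals, over the array's 75th percentile, of 1040 and 1044 on the controls against 929 and 844. Of these 11 markers 2 were called lower, Cd2 and Thy1. For the 5 Treg markers the sums were 185 and 145 against 106 and 120, with Ctla4 called lower and Ikzf2 called higher. The other Treg markers were not called, and their log2 differences were -1.20 for Foxp3, -1.67 for Il2ra and 0.13 for Tnfrsf18. Il2ra and Tnfrsf18 were the brightest of the 5 on every array, so they weigh most in the sums.

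Transcripts of 45 of the 46 ribosome biogenesis genes gave lower values on the arrays labelled Junbfl/flCd4-Cre. The median log2 difference was -0.86, which leaves 55.0% of the control level, beside a median of 0.01 over all genes tested. The differences ranged from -1.31 for Noc4l, a 40S assembly factor, to 0.65 for Utp18, a component of the small-subunit processome. All values are log2 processed signals minus the array's 75th percentile over probes, and differences are Junbfl/flCd4-Cre minus control with the standard error of the limma fit (n = 2 arrays per genotype). These are bulk RNA samples, so fewer cells of a type and less RNA per cell cannot be told apart.

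Only 1 gene of the list passed an adjusted p of 0.05 over all genes in limma, Gar1, and it fell, against 1.43% of all genes called lower. No member was called higher, against 7.02% of all genes. At an unadjusted p of 0.05 no member had a higher value, against 5014 of the 22471 genes. These shares of all genes, and those below, cover dim genes too, whose differences were mostly positive. The 7.02% and the 5014 were not computed for genes of like brightness. The share called lower was higher among bright genes, as given further below. The other 45 members did not pass. Of the 46 members, 38 were lower at an adjusted p of 0.1, against 14.6% of all genes. At an unadjusted p of 0.05, 43 were lower, against 19.1%. Both arrays labelled Junbfl/flCd4-Cre lay below both controls for 45 members, against 38.5% of all genes, and differences were negative for 49.5% of all genes. Adjusted p-values of the members ran from 0.0469 for Gar1 to 0.161 for Wdr74.

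**Figure D1:**
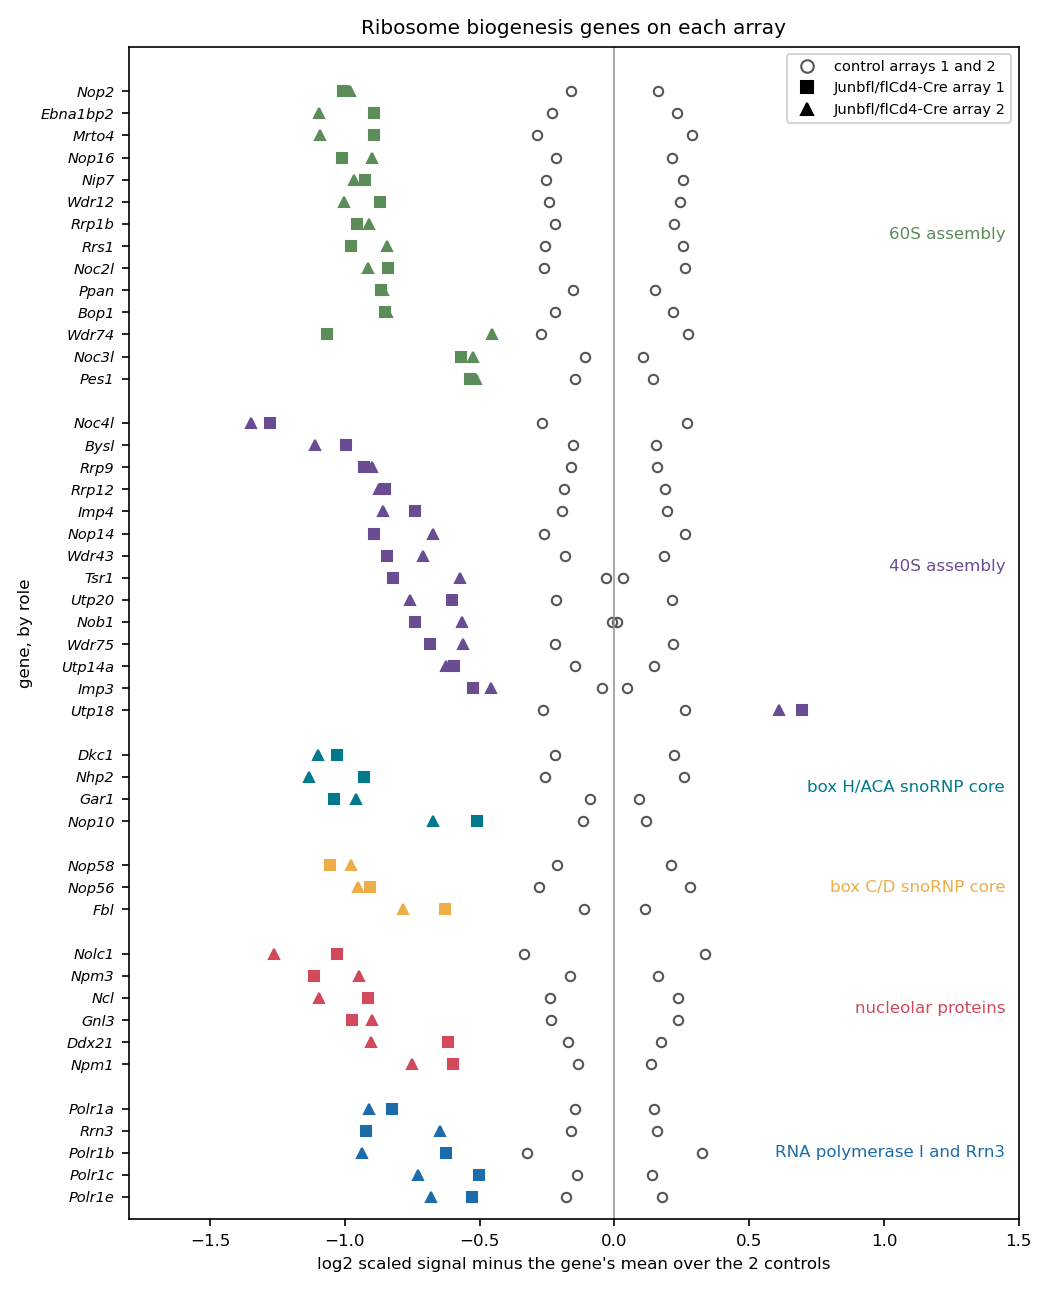
Log2 scaled signal of each of the 46 genes on each array, minus the gene's mean over the 2 controls; open circles are the controls, squares and triangles are arrays 1 and 2 labelled Junbfl/flCd4-Cre, and colours give the role. For 45 genes both coloured symbols lie to the left of both circles, and only Utp18 lies to the right.

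Control array 1 was higher than control array 2 for 45 of the 46 genes, by a median of 0.38 on the log2 scale, whereas over all genes the median difference between the controls was 0.02. The arrays labelled Junbfl/flCd4-Cre differed from each other by a median of 0.03, with 25 of 46 genes higher on array 1. The members' median scaled log2 value was 4.05 on control 1, 3.62 on control 2, 3.03 on array 1 labelled Junbfl/flCd4-Cre and 2.98 on array 2. The controls thus differed in this list, and both still lay above both other arrays. Without control 1 the members' median difference was -0.65, and without control 2 it was -1.06.

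Genes with bright probes were lower as a class on the arrays labelled Junbfl/flCd4-Cre, so each member was also set against genes of like control brightness, meaning the same one of 10 equal bins of all tested genes by mean control value. The median difference was 1.83 in the dimmest bin, where 1.82% of genes were negative, and -0.41 in the brightest. A gene dim on the controls could be kept because it stood well above background only on the arrays labelled Junbfl/flCd4-Cre. Such selection favours positive differences in the dim bins, and its share in the 1.83 was not tested. Of the 46 members, 43 lay in the 4 brightest bins. After subtraction of the bin's median, the members' median was -0.47. Below the median of their bin were 45 members, below its lower quartile 39, and within its lowest 10% of values 20. Among genes in the brighter 5 bins, 63.2% had non-overlapping lower values and 24.7% were lower at an adjusted p of 0.1, whereas for the 45 members there these shares were 100% and 84.4%. On the same scale the members' median over the controls was 0.12 on control 1 and -0.12 on control 2, and -0.49 and -0.50 on the other arrays. Genes called lower made up 1.82% to 2.36% of each of the brighter 5 bins. Of the 45 members there 1 was called, Gar1 in the brightest bin, so the calls do not set the members apart.

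**Figure D2:**
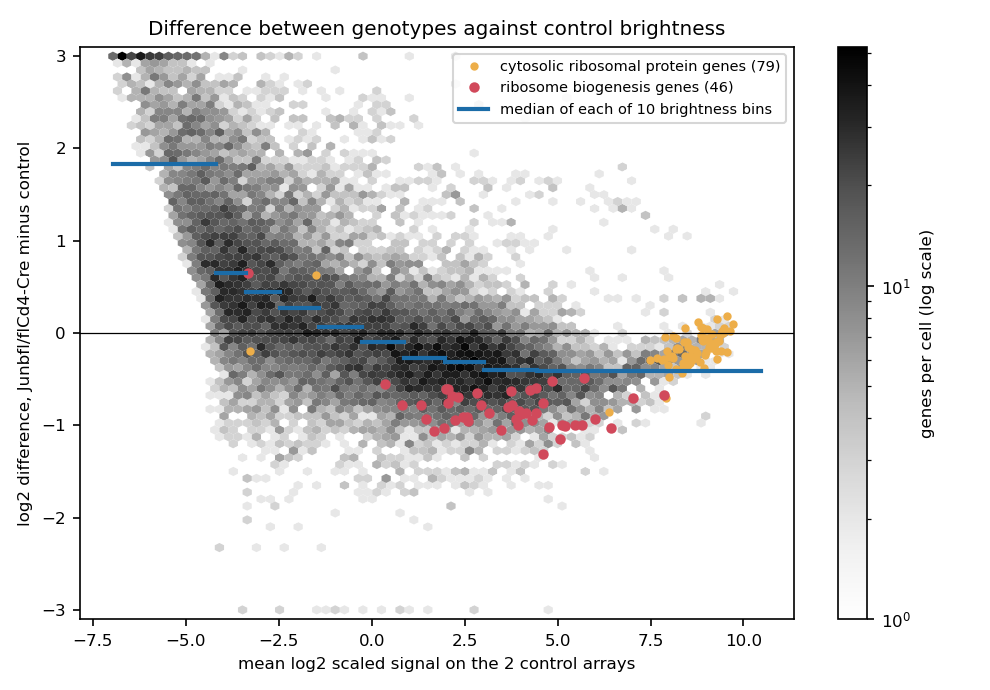
Log2 difference between genotypes against mean control value for 22471 genes (grey cells, differences beyond 3 drawn at 3), the 46 ribosome biogenesis genes (red), cytosolic ribosomal protein genes (orange) and the median of each of 10 brightness bins (blue bars). The medians fall from 1.83 to -0.41 with brightness, and 45 of the red points lie below the bar of their bin, while most orange points lie above theirs.

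A pair of motifs was searched in the promoters of these genes, because Myc binds the E-box and JunB the AP-1 site. Windows from RefSeq (build GRCm38.p6, 250 bases before to 50 after the start) were searched for 41 members; those of Npm1, Fbl, Bop1, Rrp12 and Rrs1 were not analysed here. The E-box CACGTG reads the same on both strands, as does the AP-1 pattern TGANTCA, and neither can lie within the other. An E-box was present in 8 of 41 member windows (19.5%), in 8.09% of all 27025 windows, in 12.5% of windows of genes in the brighter 5 bins and in 16.8% of windows of other ribosome biogenesis genes. The AP-1 pattern was in 0 of 41 member windows, in 8.97% of all windows and in 5.61% of those of the brighter genes. It was found in 1 of 95 windows of other ribosome biogenesis genes (1.05%) and in 2 of 61 of cytosolic ribosomal protein genes (3.28%). A match describes letters only, and its absence says nothing of binding elsewhere. The E-box began before the start in 4 genes, Imp4, Nop2, Rrn3 and Utp18, and only at or after the start in 4, Pes1, Tsr1, Utp20 and Wdr43. The stretches of the first 4 up to the last base before the start are shown 5′ to 3′ along the gene, with the E-box in capitals, because they let the position of the motif be compared. They are Imp4 at chr1:34439679-34439828 on the plus strand, Nop2 at chr6:125131733-125131882 on the plus strand, Rrn3 at chr16:13780469-13780698 on the plus strand and Utp18 at chr11:93885767-93885916 on the minus strand.
Imp4: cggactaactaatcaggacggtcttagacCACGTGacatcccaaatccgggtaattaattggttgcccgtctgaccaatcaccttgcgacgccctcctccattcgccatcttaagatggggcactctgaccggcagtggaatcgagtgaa
Nop2: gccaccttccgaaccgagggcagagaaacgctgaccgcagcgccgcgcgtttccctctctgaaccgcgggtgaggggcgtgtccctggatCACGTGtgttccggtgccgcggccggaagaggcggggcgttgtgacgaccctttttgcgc
Rrn3: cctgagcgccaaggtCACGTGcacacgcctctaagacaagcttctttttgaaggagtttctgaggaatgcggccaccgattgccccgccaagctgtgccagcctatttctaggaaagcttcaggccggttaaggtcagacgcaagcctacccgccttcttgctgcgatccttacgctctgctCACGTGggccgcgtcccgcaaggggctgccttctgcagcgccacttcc
Utp18: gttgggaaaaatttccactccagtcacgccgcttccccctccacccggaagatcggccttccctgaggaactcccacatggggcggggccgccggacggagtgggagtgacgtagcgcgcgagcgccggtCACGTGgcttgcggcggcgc
Rrn3 held 2 copies, which began 215 and 48 bases before the start, while the single copies of Imp4, Nop2 and Utp18 began 121, 60 and 20 bases before it. The 8 genes with an E-box, with the dim Utp18 among them, had a median difference of -0.74 and the 33 without one -0.93. These medians were not taken relative to genes of like brightness, and the part of Myc was not tested.

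The 5 genes of RNA polymerase I transcription had a median difference of -0.78, or -0.46 relative to genes of like brightness, and none of the 5 passed the test. Polr1a, the largest subunit of the polymerase, gave signals of 1488 and 1160 on the controls against 598 and 478. Both controls lay well above both other arrays, with a log2 difference of -0.87 ± 0.18 (adjusted p = 0.0624). Here and below, signals are given for controls 1 and 2 and then for arrays 1 and 2 labelled Junbfl/flCd4-Cre. They are printed before scaling, and the 75th percentile used for scaling was 151 and 145 for the controls against 119 and 101, so raw signals differ more than scaled ones. Polr1c, a subunit shared with RNA polymerase III and the brightest of the group, read 3174 and 2508 against 1608 and 1162. Its groups did not overlap, and the difference was -0.62 ± 0.19 (adjusted p = 0.0976). Polr1b, the second-largest subunit, gave -0.78 with the widest error of the group, ± 0.29, and its control signals of 478 and 291 lay far apart. Polr1e, the PAF53 subunit, gave -0.60. Rrn3, which brings the polymerase to the ribosomal DNA promoter and whose promoter is printed above, gave -0.78 ± 0.20.

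The 6 nucleolar scaffold, chaperone and helicase genes had a median difference of -0.97, or -0.61 relative to like-bright genes. Npm3, a nucleophosmin relative, had the smallest p of the 6, with signals of 656 and 500 on the controls against 214 and 202. The arrays labelled Junbfl/flCd4-Cre lay close together and below both controls, at a difference of -1.03 ± 0.19 (adjusted p = 0.056). Npm1, which encodes nucleophosmin, an abundant histone and ribosome chaperone of the nucleolus, read 38470 and 30564 against 18280 and 13916. All 4 signals were bright and the groups did not overlap, and the difference was -0.67 ± 0.18 (adjusted p = 0.0806). Nolc1, a chaperone of snoRNPs, had the lowest value of the group at -1.15 ± 0.29, again with controls far apart at 6391 and 3836. Ncl (nucleolin) gave -1.01, Gnl3 (the GTPase nucleostemin) -0.94 and Ddx21, an RNA helicase, -0.76.

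The box C/D snoRNP core, which places 2′-O-methyl groups on ribosomal RNA, was represented by 3 genes with a median difference of -0.93. Nop58, a scaffold protein of the particle, read 4819 and 3439 on the controls against 1580 and 1412. Its 2 lower arrays stood clear of the controls, at -1.02 ± 0.21 (adjusted p = 0.0624). Fbl, which encodes the methyltransferase fibrillarin, read 21264 and 17386 against 10027 and 7621, and the difference was -0.71 ± 0.17 (adjusted p = 0.0736). Nop56, the partner of Nop58, gave -0.93 ± 0.24. None of the 3 passed the test, and none overlapped between genotypes. All 3 lay in the brightest bin, where 75.3% of all genes had non-overlapping lower values.

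All 4 core proteins of the box H/ACA snoRNP, which turns uridine into pseudouridine, were on the list, with a median difference of -1.02, or -0.60 relative to like-bright genes. Gar1 gave signals of 7120 and 5998 on the controls against 2561 and 2296 (probe on chromosome 3, 129527855 to 129527914, build mm9). The controls lay close together, as did the other 2 arrays, and the gap between genotypes was far wider than either spread. Gar1 fell by 1.00 ± 0.16 on the log2 scale (adjusted p = 0.0469), the smallest standard error among the 4. The call sat near the threshold: leaving out any 1 of the 4 arrays gave adjusted p-values of 0.09 to 0.173, quantile normalization gave 0.0864, and no filter on dim probes gave 0.125. A dimmer second probe for Gar1, with signals of 129, 105, 41.8 and 43.7, gave -1.01. Nhp2, which binds the guide RNA, read 15618 and 10444 against 5412 and 3976, a difference of -1.03 ± 0.24 (adjusted p = 0.0723). Dkc1 encodes dyskerin, the pseudouridine synthase itself and also a component of telomerase. It read 560 and 394 against 186 and 149.7, at -1.06 ± 0.21 (adjusted p = 0.0612). Nop10, the smallest core protein, gave -0.59 ± 0.17. Dkc1, Nhp2 and Gar1 thus gave like differences, and that of Nop10 was nearer to 0.

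Small-subunit processing and assembly was the most varied group, with 13 of 14 genes negative, a median of -0.74 and -0.38 relative to like-bright genes. Bysl, which encodes bystin, a factor of the pre-40S particle, had the smallest p: it read 1885 and 1459 on the controls against 672 and 525. Both controls were brighter than both other arrays, and the scaled difference was -1.05 ± 0.18 (adjusted p = 0.0521). Imp3, the brightest of the group and a partner of the U3 snoRNP, read 8153 and 7322 against 4340 and 3837. Each pair was close, and the difference of -0.49 ± 0.14 (adjusted p = 0.092) was the smallest among the 13 negative genes, only 0.08 below the median of its bin. Noc4l was singled out after its values were seen because its difference was the lowest of the list. It read 4438 and 2923 against 1198 and 965, with all 4 signals far apart between genotypes, and the difference was -1.31 ± 0.24 (adjusted p = 0.0551), or -0.90 relative to like-bright genes.

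Among the other 40S factors, Wdr43 and Wdr75, members of the sub-complex that joins the nascent transcript first, gave -0.78 and -0.62. Rrp9, a protein of the U3 snoRNP, gave -0.91. Nop14, Utp14a and Utp20, factors of the small-subunit processome, gave -0.78, -0.61 and -0.68, and Imp4, another U3 partner with an E-box before its start, gave -0.80. Of the factors that act later, besides Bysl, Rrp12, needed for export of the pre-40S particle, gave -0.86, Tsr1, a GTPase-like maturation factor, -0.70, and Nob1, the nuclease that makes the 3′ end of 18S ribosomal RNA, -0.65. Nob1 and Tsr1, singled out after their values were seen, had nearly equal controls, at 1093 and 1034 for Nob1 and 775 and 711 for Tsr1. This pair says nothing of control 1 in the other members.

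Utp18 was the 1 exception in direction. Its signals were 12.7 and 17.5 on the controls against 19.4 and 15.5, all near the dim end of the array though well above background. Before scaling the 4 signals overlapped, and only after scaling did both controls lie below both others, at 0.65 ± 0.24 (adjusted p = 0.124). The probe lay in bin 3 of the 10 counted from the dimmest, whose median was 0.44, and the difference was 0.12 with scaling to the median. The other Utp18 probe was well above background on 1 array of 4 and gave 0.20.

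Large-subunit processing and assembly held 14 genes, all negative, with a median of -0.92 and -0.54 relative to like-bright genes. None passed the test. Nop2, a methyltransferase that acts on 28S ribosomal RNA, had the smallest p, with 5836 and 4466 on the controls against 2053 and 1764. The genotypes did not overlap, and the difference was -0.99 ± 0.18 (adjusted p = 0.055). Ebna1bp2, the brightest of the group and a factor of early 60S precursors, read 8882 and 6175 against 3221 and 2368. The difference was -0.99 ± 0.23 (adjusted p = 0.0702), with controls further apart than for Nop2. Bop1, Pes1 and Wdr12, which form a complex needed for 28S maturation, gave -0.85, -0.53 and -0.94, so Pes1 lay closer to 0 than its partners, although those differences were not tested against each other.

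Of the other large-subunit factors, Mrto4, a relative of the ribosomal stalk protein P0, gave -0.99, Nop16 -0.96, Nip7 -0.95, Rrp1b -0.93, Rrs1, which helps to place the 5S ribonucleoprotein, -0.91, Noc2l -0.88 and Ppan -0.86. Noc3l, a partner of Noc2l, gave -0.55. Wdr74 read 754 and 493 on the controls against 235 and 304. It was the member with the largest disagreement between the arrays labelled Junbfl/flCd4-Cre, at -0.76 ± 0.33, and had the largest p of the list.

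Other probes of the same genes were read as a second measurement from the same RNA. Of the 46 genes, 26 had more than 1 probe. Of the 44 probes not chosen, 40 were well above background on all 4 arrays, for 25 genes, and 37 of these 40 gave negative differences, with a median of -0.72 against -0.86 for the chosen probes of the same genes. The 22 with a mean control signal of at least 200 ran from -1.32 to -0.26 with a median of -0.84. The 18 dimmer ones had a median of -0.41, with 15 of 18 negative, and the 4 probes not above background on every array were all positive. Among probes well above background on all 4 arrays, Polr1b had the largest disagreement: its chosen probe gave -0.78, and its dim second probe (chosen after its values were seen), at most 24.8 on the controls and up to 50.3 on the others, gave 1.00.

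**Figure D3:**
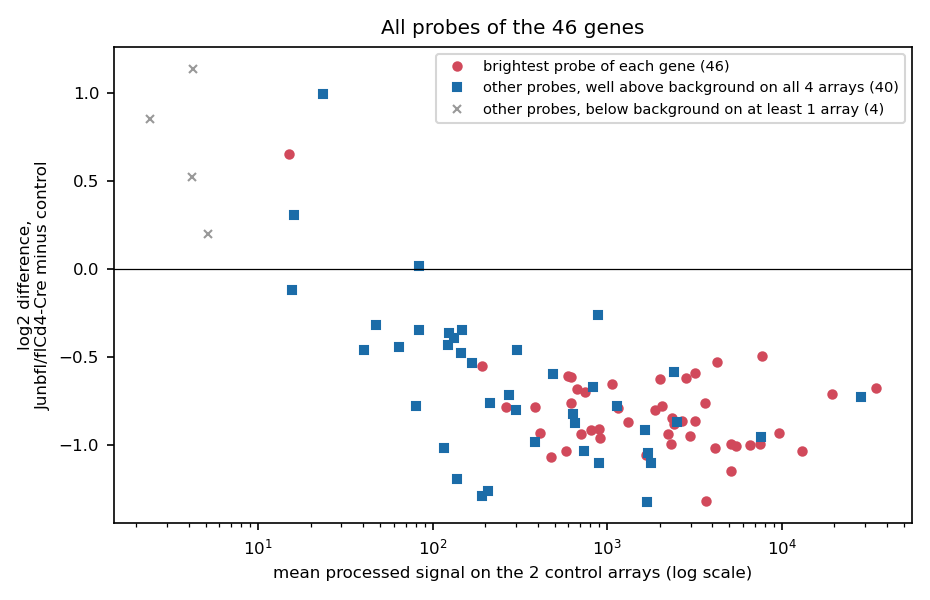
Log2 difference against mean control signal (log scale) for the 90 probes of the 46 genes: chosen probes (red circles), other probes well above background on all 4 arrays (blue squares) and other probes below background on at least 1 array (grey crosses). Chosen and unchosen probes with control signals of at least 200 lie below 0, and the few positive values belong to dim probes.

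Ribosome biogenesis genes outside the list were also lower for the most part. Of 113 tested genes of the pathway, 105 were negative, with a median of -0.63, or -0.30 relative to like-bright genes, and 61 were lower at an adjusted p of 0.1. One of the 113 passed an adjusted p of 0.05, Naf1, an assembly factor of the box H/ACA snoRNP. It read 2113 and 1614 on the controls against 597 and 579, and fell by 1.22 ± 0.19 (adjusted p = 0.0477). No gene of the 113 was called higher, and 1 was higher at an unadjusted p of 0.05. By step, the medians were -0.61 for 39 other small-subunit factors, -0.67 for 43 other large-subunit factors, all of them negative, -0.66 for 13 exosome genes and -0.74 for 8 snoRNP assembly factors and regulators. The 10 other genes of RNA polymerase I transcription stood nearest to 0 relative to like-bright genes, at -0.02, with 7 of 10 negative.

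Genes for the ribosome's own proteins gave other values. Of 79 cytosolic ribosomal protein genes, 66 were negative, but the median was -0.17, and relative to genes of like brightness it was 0.24, with 5 of 79 below the median of their bin. The brightest bin spans control values from 4.46 to 10.5, and the ribosomal protein genes lay near its upper end, with a median of 8.66 on control 1, so the bin compares them with dimmer genes. In limma none was called in either direction, 3 were lower and 1 higher at an unadjusted p of 0.05. Mitochondrial ribosomal protein genes, whose products translate mitochondrial messages, lay nearer to the assembly factors: 77 of 78 were negative, with a median of -0.67 and -0.28 relative to like-bright genes. None of the 78 was called in limma, and 64 were lower and 0 higher at an unadjusted p of 0.05. The 10 subunits of RNA polymerase III, which copies 5S ribosomal RNA and transfer RNAs, had a median of -0.52, and 10 host genes of small nucleolar RNAs had a median of -0.61. Most host genes were negative, while Snhg7 gave 1.14 (adjusted p = 0.0523).

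**Figure D4:**
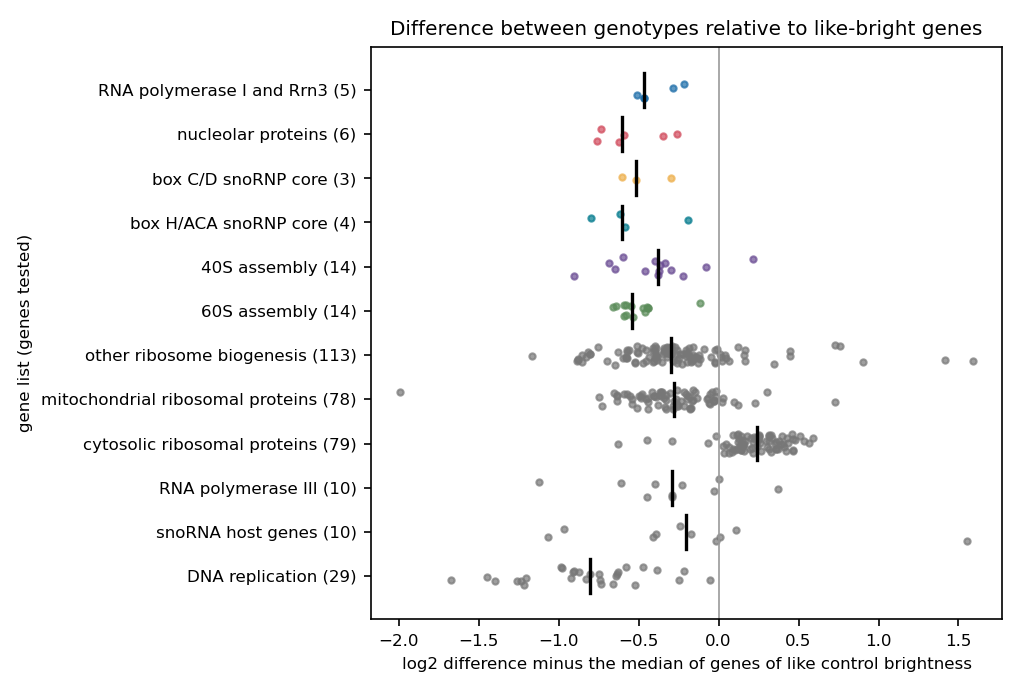
Log2 difference of each gene minus the median of genes of like control brightness, for the 6 role groups (colours) and for other gene lists (grey), with black bars at the medians. The role groups have medians from -0.61 to -0.38, the cytosolic ribosomal protein genes lie mostly above 0 with a median of 0.24, and DNA replication genes have a median of -0.80.

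Myc, whose product activates many genes of ribosome assembly, read 1950 and 1493 on the controls against 540 and 511. The groups were far apart, and Myc fell by 1.27 ± 0.19 (adjusted p = 0.0439), or -0.87 relative to like-bright genes. Its partner Max gave -0.57 ± 0.15 (adjusted p = 0.0823). The 29 DNA replication genes were all negative, with a median of -1.19, or -0.80 relative to like-bright genes, and 1 of them, Pola1, the catalytic subunit of DNA polymerase α, was called lower at -1.53 (adjusted p = 0.0449). As with Gar1, the calls of Naf1, Myc and Pola1 were lost without any 1 of the 4 arrays, since 0 of the 22471 genes were then called. The part of Myc or of replication in the values of the ribosome biogenesis genes was not tested.

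Markers of other cell types moved as well. Summed signals over the 75th percentile were 3.94 and 1.68 on the controls against 8.02 and 5.45 for 8 B cell markers, of which Blk was not well above background on any array, and 1 of the 8, Ms4a1, was called higher. The 11 myeloid markers summed to 26.8 and 17.9 against 62.6 and 32.8, with Adgre1 not above background on any array. Itgam, at 0.93 ± 0.59 on the log2 scale, made up most of that sum on each array. All 9 myeloid markers tested were positive, but Cd14, Lyz2, S100a8 and S100a9 were not well above background on control 2. These passed the filter only through the arrays labelled Junbfl/flCd4-Cre, and such selection favours positive differences. The 5 NK cell markers summed to 4.93 and 7.98 against 18.5 and 34.5, with Klrk1 and Ncr1 not above background. Nkg7, which made up most of the NK sum on each array, gave 2.28 on the log2 scale, and Klrd1 gave -1.04. For 12 colon epithelium markers the sums were 2.55 and 3.51 against 3.87 and 4.37. Cdh1, Krt19, Krt20, Muc2 and Vil1 were not above background on any array. Lgals4, at 0.41 ± 0.27 on the log2 scale and not called, made up most of that sum on each array. Of the 6 tested, 5 were positive and Epcam gave -0.48, while Slc26a3 was called higher. Slc26a3 and Krt8 passed the filter only through the arrays labelled Junbfl/flCd4-Cre, and such selection favours positive differences. For 7 stromal and endothelial markers the sums were 0.627 and 0.595 against 1.32 and 0.963, with Cdh5 and Pdgfra not above background. Pecam1, at 0.47 ± 0.20 and not called, was the brightest of the 7 on every array, so it weighs most in the sums. Col1a1 and Dcn were called higher, but Dcn passed the filter only through the arrays labelled Junbfl/flCd4-Cre. The Col1a1 call came from a dimmer probe than the one summed, which was well above background only on array 1 labelled Junbfl/flCd4-Cre. Hba-a1, a haemoglobin gene of red cells singled out after its values were seen, had signals of 2078 and 2961 on the arrays numbered 1 of the 2 genotypes and of 20.7 and 51.6 on those numbered 2. Levels of different probes cannot be compared, and the part of these markers in the values of the ribosome biogenesis genes was not tested.

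How many members passed the test depended on the processing, and 44 or 45 of the 46 were negative in every setting. An adjusted p of 0.05 was passed by 0 of the 46 genes with quantile or cyclic loess normalization, by 45 with scaling to the array's median, which moved the median of all genes from 0.01 to -0.52 and called 33.1% of all genes lower, and by 39 with normexp background before 75th percentile scaling, where 16.9% of all genes were called lower. The members' median difference moved with it, to -0.61, -0.53 and -1.40 with quantile, cyclic loess and median scaling. Relative to genes of like control brightness the median stayed between -0.63 and -0.37 in all 16 settings computed. In the authors' deposited table the 46 genes had a median log2 difference of -0.59, with 45 of 46 negative, beside -0.04 over all genes. There 0 of the 46 had an adjusted p under 0.05, while 0.725% of all genes did with a lower value.

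**Figure D5:**
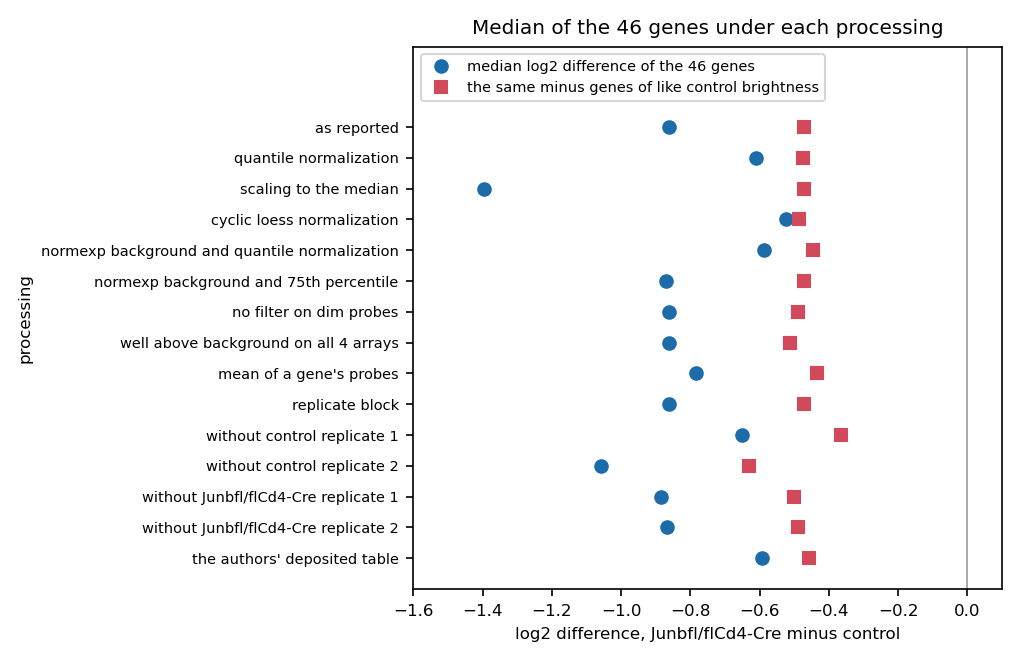
Median log2 difference of the 46 genes under each processing (blue circles) and the same after subtraction of the median of genes of like control brightness (red squares). The circles run from -1.40 to -0.53, and the squares plotted from -0.63 to -0.37.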

How the data were processed

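Per the file headers, scans were processed in Agilent Feature Extraction (version 11.5.1.1), and the authors deposited for each spot a mean, a local background and a processed intensity, background-subtracted but not scaled between arrays. The authors also deposited a table of log2 signals, log2 differences and p-values per transcript, by steps not given in the sources used here. Each array held 59305 non-control spots for 56605 probes, and 59.3% to 66.3% of spots were well above background and none was saturated. Outlier spots (108 to 215 per array) were left out, and 56310 probes with a usable spot on every array remained.

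From log2 processed signals, each array's 75th percentile was taken away. Probes were kept that stood well above background for both arrays of 1 genotype or more, and the brightest probe stood for each gene. Gene names came from the files, updated through a RefSeq table of GRCm38.p6 (33895 probes by accession, 489 by synonym, 9464 already current, 12757 kept as filed), and probe positions are those of the files, on mm9. All 46 members passed the filter. The test was limma's moderated fit (version 3.58.1 under R 4.3.3) of genotype alone, with Benjamini-Hochberg adjustment over 22471 genes. The scripts were tested on simulated data with differences larger than that of any member and with independent arrays. That test does not cover differences of the size reported here. Python 3.11.15, pandas 2.3.3, numpy 2.4.6 and matplotlib 3.10.9 were used otherwise.

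The members, the gene lists and the tests were chosen with earlier results of these data known. Every member is named. Signals per array are given for called members, for the smallest p and the brightest member of each of 6 role groups, and for a few others singled out after their values were seen. The number of arrays limits the precision. Pearson correlations over genes were 0.982 between controls, 0.978 between the arrays labelled Junbfl/flCd4-Cre and 0.933 to 0.955 between genotypes. One marker list is not reported here.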

Additional observations from a re-analysis of the deposited data

How the results depend on the processing

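The count of members called lower, 1 as reported, was 0 with quantile normalization, cyclic loess, normexp background with quantile normalization, no filter on dim probes, the mean of a gene's probes and the authors' deposited table. It was 0 without any 1 of the 4 arrays, where 0 of all genes were called. It was 45 with scaling to the median, 39 with normexp background and 75th percentile scaling, and 38 at an adjusted p under 0.1. No setting called a member higher. The median difference, -0.86 as reported, moved beyond the spread between arrays with quantile normalization (-0.61), scaling to the median (-1.40), cyclic loess (-0.53), normexp background with quantile normalization (-0.59) and the authors' deposited table (-0.59), and ranged from -1.06 to -0.65 when 1 array was left out. Relative to like-bright genes, leaving out 1 array gave -0.63 to -0.37. In each setting 44 or 45 of 46 members were negative, and 1 value reversed: Polr1b gave 0.11 (adjusted p = 0.753) with the mean of its probes, of which the dim one gave 1.00. Calls over all genes were 1899 as reported, 454 with quantile normalization, 704 with cyclic loess, 314 with normexp background and quantile normalization, 9406 with scaling to the median and 7216 with normexp background and 75th percentile scaling, 1253 with only probes above background on all 4 arrays, 0 with no filter and 588 in the authors' table. The titles number the arrays 1 and 2 in each genotype, but no label says that the numbers pair them. Deviations of same-numbered arrays had a correlation of 0.499. With the replicate number as a block 29 members were called lower. Over all genes 6852 were then called in either direction. The share of all genes called lower is not given here, so the 29 cannot be set against it. All 4 arrays lay on 1 slide with 1 scan time, so a slide block was not run. Causes of these shifts were not tested.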
